A study of Mus musculus with 10 samples.

Results

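The smooth muscle contractile genes examined here are 10 genes of the filaments that shorten a smooth muscle cell, and of the proteins that switch, anchor or bind those filaments. They were taken by gene symbol as *Acta2*, *Actg2*, *Myh11*, *Tagln*, *Des*, *Cnn1*, *Lmod1*, *Mylk*, *Smtn* and *Synpo2*. Each symbol matched 1 of the 56691 genes in the deposited table, and all 10 were among the 16545 genes with enough counts to be tested. RNA was sequenced from colon of 10 male C57/BL6 mice that were 8 weeks old when obtained, and dextran sulfate sodium (DSS), a polymer that injures the colon lining, had been given at 3% in drinking water for 7 days to every one of them. The DSS group (5 mice, DSS-1 to DSS-5) had no further treatment that the sources used here name, and the ceAF group (5 mice, ceAF-1 to ceAF-5) was afterwards gavaged with chick early amniotic fluid (ceAF) at 15 mL/kg for 10 days. Whether the DSS group was gavaged with a vehicle, and which stretch or layers of colon gave RNA, are not given in the sources used here, and untreated or mesalazine-treated mice were not analysed here. Total counts ranged from 16275884 to 19901549 per mouse in the DSS group and from 14676471 to 18811795 in the ceAF group, and the lowest count of any of the 10 genes in any mouse was 204. The library of ceAF-1 stood apart from the other 9 on the first principal component of all tested genes (93.5 against −45.5 to 16.0, 30.8% of the variance), so each correlation of a list of genes with the score defined below is also given without it.

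In smooth muscle, filaments of actin slide past filaments of a muscle-type myosin once myosin light chain kinase, activated by calcium and calmodulin, phosphorylates the light chain of the myosin. The colon carries such cells in the layers of its outer muscle wall and in the thin muscle of the mucosa, where they mix and move the contents, and also around its blood vessels. Many of these genes are known targets of serum response factor and its partner myocardin, and several are also transcribed in myofibroblasts and pericytes.

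Per length of gene, the actins were the most abundant of the 10 genes. Levels of different genes were compared in FPKM, in which counts are divided by library total and by summed exon length, which removes most of the effect of gene length. Mean levels over the 10 mice were 204 FPKM for *Actg2* and 160.3 FPKM for *Acta2*. They were followed by *Cnn1* at 85.8, *Des* at 81.0, *Myh11* at 74.4 and *Tagln* at 62.9 FPKM. *Mylk* (22.9), *Smtn* (17.8), *Synpo2* (6.10) and *Lmod1* (5.13 FPKM) were lower. The order had clear steps below *Tagln* and below *Smtn*, where the ranges of the neighbouring genes over the 10 mice did not overlap, and every other pair of neighbours overlapped in range. *Actg2* lay above *Acta2* in 8 of 10 mice, with a ratio per mouse of 1.26 ± 0.227 (SD, n = 10), and *Cnn1* lay above *Des* in 6 of 10 mice, with a ratio of 1.05 ± 0.145 (SD, n = 10). The FPKM scale divides by exonic lengths from 1557 bases (*Actg2*) to 13089 bases (*Synpo2*), which add up all annotated exons of a gene, so a gene whose long exons are little used reads lower on it.

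**Figure D1:**
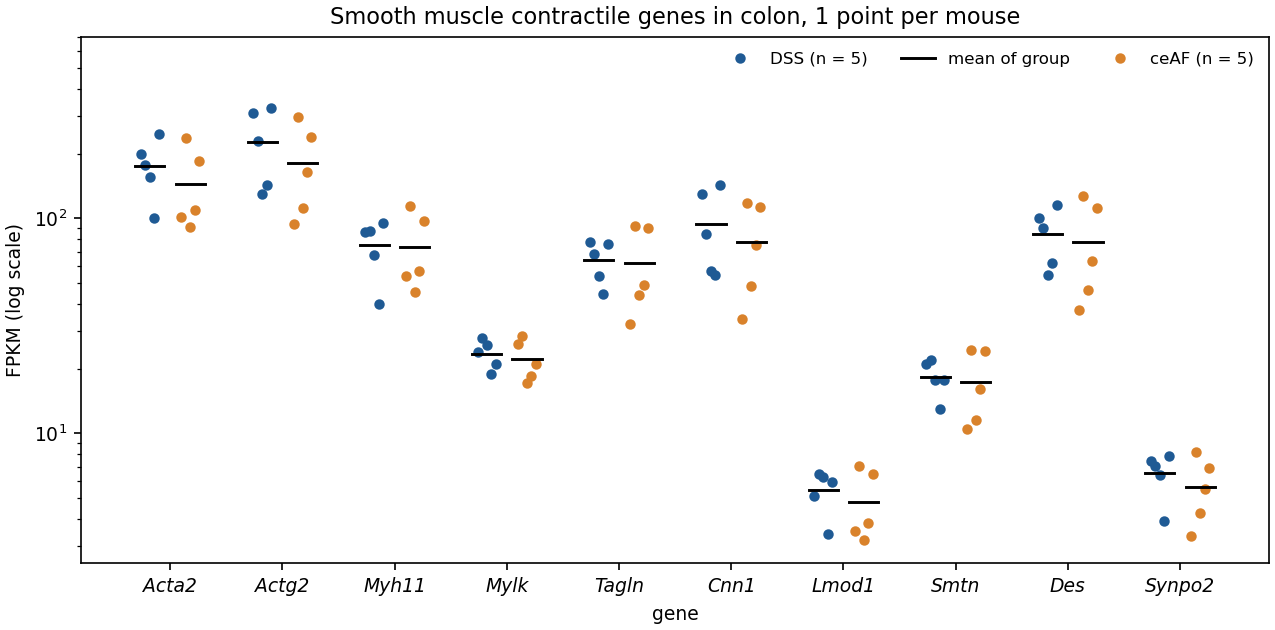
FPKM of the 10 genes on a log axis, 1 point per mouse, in the DSS group (blue, n = 5) and the ceAF group (orange, n = 5), with black lines at the arithmetic mean of each group. The points of the 2 groups overlap for each gene, from *Actg2* with a mean of 204 FPKM over 10 mice to *Lmod1* with 5.13 FPKM.

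The thin filament is built of actin, and *Acta2* (ENSMUSG00000035783, chromosome 19) and *Actg2* (ENSMUSG00000059430, chromosome 6) encode the alpha form, typical of blood vessels, and the gamma form, typical of gut wall. Each gene is given per mouse in CPM, its count with every library brought to the same fixed total, after scaling by TMM (trimmed mean of M values), a factor per library that sets the typical gene equal between libraries. *Acta2* measured 422, 386, 333, 231 and 534 CPM in DSS-1 to DSS-5 and 251, 526, 207, 231 and 381 CPM in ceAF-1 to ceAF-5. DSS-5 and ceAF-2 were the highest mice and ceAF-3, DSS-4 and ceAF-4 the lowest, so each group held both high and low mice. Group means were 381 ± 112 CPM (SD, n = 5) in the DSS group and 319 ± 134 CPM (SD, n = 5) in the ceAF mice, and the log2 fold change, ceAF minus DSS, was −0.26 (standard error 0.29, edgeR adjusted p = 0.906, exact permutation p = 0.365). A log2 fold change of −1 means a level 0.5 times as high, the adjusted p allows for the testing of all 16545 genes by the method of Benjamini and Hochberg, and the exact permutation p, over all ways to split 10 mice into 5 and 5, cannot be smaller than 0.00794. *Actg2* measured 463, 355, 197, 234 and 501 CPM in DSS-1 to DSS-5 and 165, 469.6, 179, 244 and 349 CPM in ceAF-1 to ceAF-5. The high mice were DSS-5, ceAF-2 and DSS-1, and the low ones ceAF-1, ceAF-3 and DSS-3. Its group means were 350.1 ± 135 CPM (SD, n = 5) in the DSS group and 281 ± 128 CPM (SD, n = 5) in the ceAF mice, and its log2 fold change was −0.32 (standard error 0.34, edgeR adjusted p = 0.899, exact permutation p = 0.365). These were differences smaller than the spread between mice of a group for both actins. On the FPKM scale the ratio of *Actg2* to *Acta2* was 1.29 ± 0.270 (SD, n = 5) in the DSS group and 1.24 ± 0.203 (SD, n = 5) in the ceAF group. It was under 1 in DSS-3 (0.835) and ceAF-1 (0.925) and lay between 1.22 and 1.55 in the other 8 mice.

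*Myh11* (ENSMUSG00000018830, chromosome 16) encodes the myosin heavy chain of smooth muscle, the motor of the thick filament. It measured 629.9, 662, 499, 319 and 710.0 CPM in DSS-1 to DSS-5 and 458, 883, 357, 414 and 693 CPM in ceAF-1 to ceAF-5. DSS-4 was the lowest mouse and ceAF-2 the highest. Group means were nearly equal, at 564 ± 158 CPM (SD, n = 5) in the DSS group and 561 ± 221 CPM (SD, n = 5) in the ceAF mice, with a log2 fold change of −0.01 (standard error 0.28, edgeR adjusted p = 0.998, exact permutation p = 0.905). *Mylk* (ENSMUSG00000022836, chromosome 16) encodes myosin light chain kinase, which starts contraction, and the same gene also yields a longer kinase of non-muscle cells. Counts per gene do not separate these transcripts. *Mylk* measured 260.3, 311, 284, 223 and 234 CPM in DSS-1 to DSS-5 and 329, 323, 200.2, 199 and 223 CPM in ceAF-1 to ceAF-5. Its highest value was in ceAF-1 (in FPKM, which TMM does not scale, ceAF-2 at 28.3 and DSS-2 at 27.8 stood above ceAF-1 at 26.1), a mouse among the lowest 4 for *Myh11* and the lowest of all for *Actg2*, *Tagln*, *Des*, *Cnn1*, *Smtn* and *Synpo2*. The *Mylk* group means were 262 ± 36.1 CPM (SD, n = 5) in the DSS group and 255 ± 65.7 CPM (SD, n = 5) in the ceAF mice, and the log2 fold change was −0.04 (standard error 0.17, edgeR adjusted p = 0.981, exact permutation p = 0.714). The highest mouse stood 1.65-fold above the lowest for *Mylk*, the smallest such spread of the 10 genes, against 2.77-fold for *Myh11*.

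Proteins bound along the thin filament came next. *Tagln* (ENSMUSG00000032085, chromosome 9) encodes transgelin, an actin-binding protein also called SM22 alpha, and it measured 148, 136, 105, 92.5 and 149.8 CPM in DSS-1 to DSS-5 and 72.1, 186, 90.5, 93.4 and 169 CPM in ceAF-1 to ceAF-5. ceAF-2 and ceAF-5 were the highest mice and ceAF-1 the lowest, so the ceAF group spanned the whole range of the DSS group. Group means were 126 ± 26.1 CPM (SD, n = 5) in the DSS group and 122 ± 51.6 CPM (SD, n = 5) in the ceAF mice, with a log2 fold change of −0.04 (standard error 0.27, edgeR adjusted p = 0.985, exact permutation p = 0.698). *Cnn1* (ENSMUSG00000001349, chromosome 9) encodes calponin, which slows the cycling of actin and myosin, and it measured 342, 229.5, 152, 157 and 387 CPM in DSS-1 to DSS-5 and 104, 328, 136, 196 and 292 CPM in ceAF-1 to ceAF-5. It varied most among the 10 genes, with DSS-5 3.71-fold above ceAF-1. The *Cnn1* means were 254 ± 107 CPM (SD, n = 5) in the DSS group and 211 ± 96.8 CPM (SD, n = 5) in the ceAF mice, with a log2 fold change of −0.26 (standard error 0.36, edgeR adjusted p = 0.925, exact permutation p = 0.492). *Lmod1* (ENSMUSG00000048096, chromosome 1) encodes leiomodin, which starts new actin filaments, and was the scarcest of the 10. It measured 19.5, 25.4, 24.1, 14.2 and 23.2 CPM in DSS-1 to DSS-5 and 15.6, 28.2, 12.9, 14.5 and 24.1 CPM in ceAF-1 to ceAF-5, and its log2 fold change was −0.16 (standard error 0.24, edgeR adjusted p = 0.936, exact permutation p = 0.476). ceAF-3, DSS-4 and ceAF-4 were its lowest mice and ceAF-2 its highest. *Smtn* (ENSMUSG00000020439, chromosome 11) encodes smoothelin, an actin-binding protein of contracting smooth muscle. It measured 88.7, 95.8, 75.6, 59.8 and 76.7 CPM in DSS-1 to DSS-5 and 51.6, 109, 52.2, 67.3 and 99.2 CPM in ceAF-1 to ceAF-5, and its log2 fold change was −0.07 (standard error 0.23, edgeR adjusted p = 0.977, exact permutation p = 0.619). ceAF-1 and ceAF-3 were lowest for *Smtn*, and ceAF-2 and ceAF-5 highest, all of the same group.

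The remaining 2 genes belong to the scaffold that holds the filaments. *Des* (ENSMUSG00000026208, chromosome 1) encodes desmin, the intermediate filament of muscle, and measured 363, 336, 199.9, 245 and 427 CPM in DSS-1 to DSS-5 and 157, 483, 180.5, 229 and 397 CPM in ceAF-1 to ceAF-5. Low values were found in ceAF-1, ceAF-3 and DSS-3 and high values in ceAF-2, DSS-5 and ceAF-5. Group means were 314 ± 91.5 CPM (SD, n = 5) in the DSS group and 289 ± 143 CPM (SD, n = 5) in the ceAF mice, with a log2 fold change of −0.12 (standard error 0.33, edgeR adjusted p = 0.972, exact permutation p = 0.587). *Synpo2* (ENSMUSG00000050315, chromosome 3) encodes an actin-bundling protein that is bound to the anchor points of the filaments, the counterparts of the Z discs of striated muscle. It measured 93.6, 91.8, 81.7, 53.9 and 101 CPM in DSS-1 to DSS-5 and 48.9, 109, 57.5, 69.5 and 85.4 CPM in ceAF-1 to ceAF-5, with a log2 fold change of −0.19 (standard error 0.23, edgeR adjusted p = 0.916, exact permutation p = 0.421). ceAF-1 was again the lowest mouse and ceAF-2 the highest.

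Compared to the DSS group, none of the 10 genes differed in the ceAF group beyond the spread between mice. At an adjusted p under 0.05 in edgeR's quasi-likelihood test 0 of 10 were called, where the background was 0.0% of the 16545 genes tested. DESeq2 and limma also called 0 of the 10. At an unadjusted p under 0.05, 0 of 10 were lower and 0 of 10 higher in the ceAF group, against 3.67% of all tested genes lower and 3.26% higher. The values per mouse overlapped between the groups for all 10 genes. Among all tested genes, 0.465% had every ceAF mouse below every DSS mouse and 0.774% had every ceAF mouse above. All 10 log2 fold changes lay below 0, although that of *Myh11* reached 0.00 with upper quartile normalization, and their median was −0.14, where the median over all tested genes was 0.01 and 48.6% of them lay below 0. The 10 genes vary together from mouse to mouse, so their shared sign is not 10 separate observations, and 5 of them changed sign when single mice were left out. Without ceAF-3 the median was −0.01, without ceAF-2 it was −0.34, and without ceAF-1 it was −0.08. The 95% intervals of the log2 fold changes all included 0 and reached at the widest from −1.05 to 0.53, for *Cnn1*, and at the narrowest from −0.43 to 0.34, for *Mylk*, so a difference of a size within them could be present unseen. In bulk tissue, fewer smooth muscle cells and less RNA of these genes per cell cannot be told apart.

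**Figure D2:**
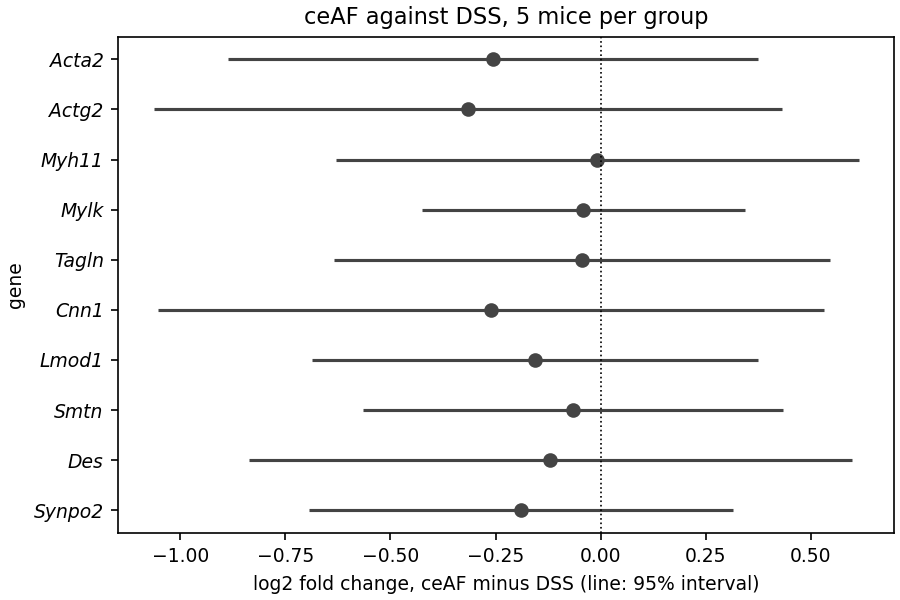
Log2 fold change of each gene, ceAF minus DSS (point), from edgeR's quasi-likelihood fit over 5 mice per group, with its 95% interval (line); the dotted line marks 0. The points run from −0.32 for *Actg2* to −0.01 for *Myh11*, which was at 0.00 with upper quartile normalization, and each of the 10 intervals includes 0.

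The larger differences were between mice. To give each mouse a smooth muscle score, each gene was centered on its own mean log2 CPM, and the 10 centered values of the mouse were averaged. It was 0.32, 0.26, −0.13, −0.41 and 0.42 in DSS-1 to DSS-5 and −0.52, 0.60, −0.55, −0.30 and 0.30 in ceAF-1 to ceAF-5. The highest score and the 2 lowest scores were all found in the ceAF group. Group means were 0.09 ± 0.35 (SD, n = 5) in the DSS group and −0.09 ± 0.52 (SD, n = 5) in the ceAF group. The scores left a gap of 0.39 between −0.13 and 0.26, with 5 mice on each side. Above it lay DSS-1, DSS-2, DSS-5, ceAF-2 and ceAF-5, and below it DSS-3, DSS-4, ceAF-1, ceAF-3 and ceAF-4. In DSS-1, DSS-2 and ceAF-2 all 10 genes stood above their own means, and in DSS-4, ceAF-3 and ceAF-4 none did. In ceAF-1 only *Mylk* did, and DSS-3 was mixed, with 5 genes above their means and 5 below.

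**Figure D3:**
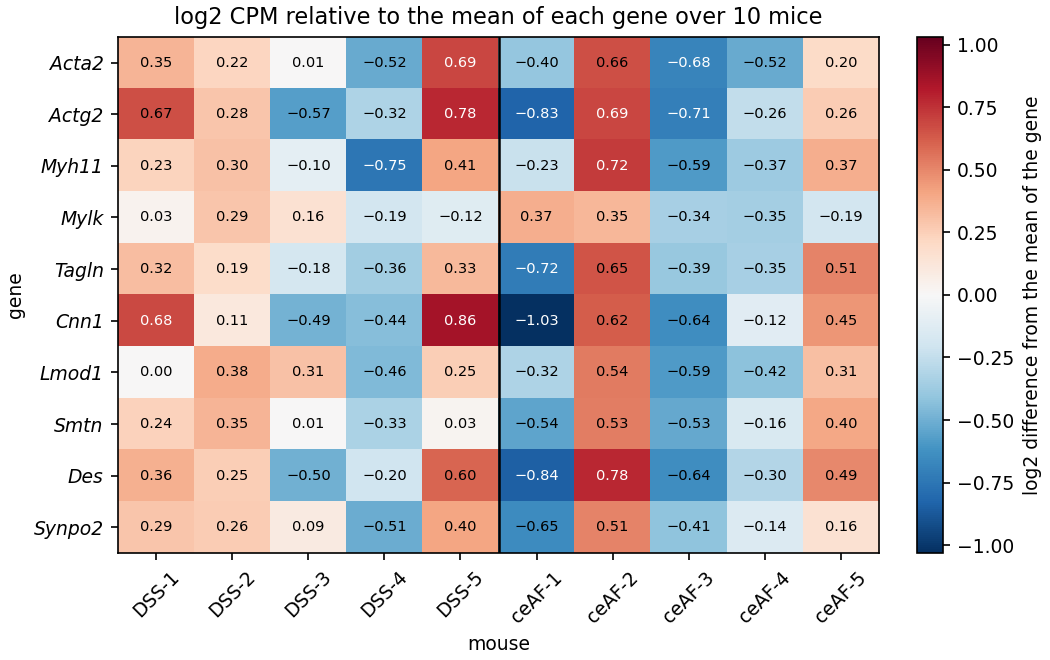
Log2 CPM of each gene (rows) in each mouse (columns) relative to the mean of that gene over the 10 mice, with red above and blue below the mean and the value printed in each cell. Columns are mostly of one color, and the cell of *Mylk* in ceAF-1 (0.37) goes against its column, where *Cnn1* stands at −1.03.

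Summed over the 10 genes, the counts made up 0.294, 0.264, 0.200, 0.155 and 0.319% of all counts in DSS-1 to DSS-5 and 0.147, 0.340, 0.143, 0.183 and 0.288% in ceAF-1 to ceAF-5. The highest share, in ceAF-2, had an exact Clopper-Pearson 95% interval of 0.337% to 0.343%, and the lowest, in ceAF-3, one of 0.141% to 0.145%, which cover counting error only. Group means were 0.247% ± 0.0677 (SD, n = 5) in the DSS group and 0.220% ± 0.0889 (SD, n = 5) in the ceAF group. This is a share of sequenced RNA that a few abundant genes dominate. It does not measure how much muscle wall a piece of colon held. With the depth of the libraries the score had r = 0.07 (rho = 0.02, and r = −0.18 without ceAF-1), with their mitochondrial share r = −0.21 (rho = −0.09, and r = 0.07 without ceAF-1), and with the number of genes with a count r = 0.35 (rho = 0.26, and r = 0.09 without ceAF-1), over 10 mice. It had r = −0.68 with the first principal component of all tested genes (rho = −0.68), and r = −0.65 without ceAF-1. The median SD within groups was 0.49 on the log2 scale for the 10 genes and 0.33 for all tested genes.

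Likeness between the genes was described by Pearson's r over the 10 mice. It had a median of 0.87 over the 45 pairs (median Spearman's rho 0.83) and of 0.87 after the group means were subtracted. *Actg2* with *Cnn1* (0.98), *Actg2* with *Des* (0.97), *Tagln* with *Des* (0.96) and *Des* with *Cnn1* (0.96) were the closest pairs. *Acta2* was closest to *Myh11* (0.94), and *Lmod1* was also closest to *Myh11* (0.90). These pairs share the same 10 libraries, and with 5 mice on each side of the gap in the score r was not computed within either side. *Mylk* was the exception. Its r with the other 9 genes ran from −0.02 (*Cnn1*) to 0.56 (*Lmod1*), with a median of 0.24, while the 36 pairs without *Mylk* ran from 0.65 to 0.98. That rested largely on ceAF-1. With this mouse left out, an alternative chosen after seeing the data, the pairs with *Mylk* had a median r of 0.66 (0.33 to 0.81) and the pairs without it 0.88. Without ceAF-1 and ceAF-3, the 2 mice farthest from the median score, the medians were 0.57 and 0.84.

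A wider list of 50 other smooth muscle genes was read from the same fit, and 48 of them had enough counts. Of these, 35 had a log2 fold change below 0 and 13 above 0, with a median of −0.13 (−0.16 to −0.12 under 7 other settings), and 0 were called at an adjusted p under 0.05 by edgeR, DESeq2 or limma. With single mice left out the median ranged from −0.25 (without ceAF-2, 37 of 48 below 0) to −0.05 (without ceAF-3, 29 of 48). At an unadjusted p under 0.05 in edgeR's test 1 was lower and 0 were higher in the ceAF group. It was *Cacna1c*, the pore of the L-type calcium channel that lets in calcium for contraction, at 1.32, 0.97, 1.14, 0.72 and 1.14 FPKM in DSS-1 to DSS-5 and 0.64, 0.93, 0.60, 0.73 and 1.05 FPKM in ceAF-1 to ceAF-5. Its log2 fold change was −0.41 (standard error 0.17, edgeR adjusted p = 0.704), with an exact permutation p of 0.0556, and the groups overlapped. The 1 of 48 compares with 6.93% of all tested genes at an unadjusted p under 0.05 in either direction. With DESeq2 it was 3 (4.84% of all genes), without a filter on low counts 3 (5.33%), and with the replicate number as a block 4 (4.19%). With CPM of at least 1 in at least 5 mice it was 1 (6.975%), and with limma (6.49% and 6.45%) or upper quartile normalization (6.715%) 0. With single mice left out it was 5 without DSS-4 (5.68% of all genes), 5 without ceAF-2 (7.05%) and 3 without ceAF-5 (5.76%). It was 1 without DSS-3 (6.17%) or ceAF-1 (11.15%), and 0 without any of the other 5 mice (4.26% to 9.59%). By role, 4 of 4 myosin light chain and tropomyosin genes, 12 of 15 genes of the cytoskeleton and its dense plaques, 4 of 5 channels and receptors, 5 of 8 genes that relay signals to contraction, and 7 of 11 others lay below 0, where 48.6% of all tested genes did. *Cald1*, which encodes the thin filament protein caldesmon, was at −0.65 (standard error 0.30, edgeR adjusted p = 0.720), and transcription regulators were split, with 2 of 4 below 0. *Myocd*, which encodes myocardin, was scarce, at 0.21, 0.28, 0.34, 0.11 and 0.57 FPKM in DSS-1 to DSS-5 and 0.08, 0.21, 0.20, 0.10 and 0.29 FPKM in ceAF-1 to ceAF-5, and its log2 fold change was −0.75 (standard error 0.44, edgeR adjusted p = 0.758). *Srf*, which encodes serum response factor and is active in most cell types, varied little, at 14.1, 16.7, 15.2, 13.7 and 15.1 FPKM in DSS-1 to DSS-5 and 13.1, 18.1, 16.5, 15.7 and 12.4 FPKM in ceAF-1 to ceAF-5, with a log2 fold change of 0.05 (standard error 0.12, edgeR adjusted p = 0.971).

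The 5 most abundant genes of that list differed in how closely they followed the score. *Dstn*, whose product destrin takes actin filaments apart and which is not limited to muscle, had a mean of 1138 FPKM and an r of 0.38 with the smooth muscle score over 10 mice (rho = 0.22). *Myl6*, a myosin light chain of many cell types, had a mean of 232 FPKM and an r of 0.05 (rho = 0.08). *Myl9*, the light chain that the kinase phosphorylates, had 139 FPKM and an r of 0.83 (rho = 0.89). *Csrp1*, a LIM domain protein of smooth muscle, had 114 FPKM and an r of 0.97 (rho = 0.92), and *Tpm1*, a tropomyosin, 96.4 FPKM and 0.77 (rho = 0.78). Their log2 fold changes between the groups were 0.10 for *Dstn*, −0.15 for *Myl6*, −0.10 for *Myl9*, −0.14 for *Csrp1* and −0.06 for *Tpm1*, and the edgeR adjusted p was at least 0.853 for each. The score of the whole list followed that of the 10 genes, with r = 0.96 and rho = 0.95 over 10 mice, 0.95 without ceAF-1, 0.94 without ceAF-1 and ceAF-3, and 0.96 after the group means were subtracted. Of the 48 tested genes 34 had an r over 0.5 with the score, and the same held for 9.29% of the 16345 tested genes with a symbol outside the 10. An r below 0 was found for 7 of the 48, lowest for *Rock2* (−0.66), a kinase of many cell types, and *Ldb3* (−0.62), a Z disc protein of muscle.

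Among all those 16345 genes, the 10 most like the score were *Tpm2* (r = 0.98), *Tns1* (0.98), *Csrp1* (0.97), *Zfp651* (0.95), *Lims2* (0.95), *Flna* (0.94), *Cavin2* (0.93), *Synm* (0.92), *Dmpk* (0.92) and *Jph2* (0.92). The wider smooth muscle list held 7 of these 10, and *Zfp651*, *Lims2* and *Cavin2* were outside it. Mean levels differed widely, from 114 FPKM for *Csrp1*, 70.2 FPKM for *Tpm2*, a tropomyosin, and 48.8 FPKM for *Flna*, the actin crosslinker filamin A, to 0.724 FPKM for *Zfp651*, a zinc finger protein. *Tns1* (6.85 FPKM) and *Lims2* (3.13 FPKM) encode proteins of the contacts that tie actin to integrins, and *Cavin2* (4.96 FPKM) a coat protein of caveolae. *Synm* (8.47 FPKM) encodes synemin, which binds desmin, *Dmpk* (11.8 FPKM) a protein kinase of muscle, and *Jph2* (2.85 FPKM) junctophilin, which holds the calcium store near the cell surface. Without ceAF-1 and ceAF-3 their r lay between 0.86 and 0.99, and none of the 10 reached an unadjusted p under 0.05 between the groups in edgeR's test. At the other end stood *Ccdc162* (r = −0.89), *Xiap* (−0.88), *Sap30* (−0.86), *Chac2* (−0.86) and *Mcur1* (−0.85). *Ccdc162* was at 0.06 to 0.23 FPKM and had as few as 10 counts in a mouse, and *Xiap*, an inhibitor of caspases, ranged over 18.5 to 23.0 FPKM. These genes were picked out of 16345 by r itself, so their r is high by selection.

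Markers of other cells that a piece of colon can hold were read beside the smooth muscle score, as whole lists, to show what moved with it. The part of any of them in the differences between mice was not tested. All 13 colon epithelium markers were tested, with *Car1* (93.3 to 8530.1 FPKM) the most abundant. Their score was −0.10, 0.17, 0.16, 0.35 and −0.58 in DSS-1 to DSS-5 and 0.19, 0.01, 0.16, −0.10 and −0.27 in ceAF-1 to ceAF-5. It ran against the smooth muscle score (r = −0.60, rho = −0.68 over 10 mice), also without ceAF-1 (r = −0.56) and without ceAF-1 and ceAF-3 (r = −0.52). DSS-5 had the lowest epithelium score and a high smooth muscle score, and DSS-4 the highest epithelium score and a low smooth muscle score. Their summed level was 9251, 12504, 14958, 13320.0 and 6907 FPKM in DSS-1 to DSS-5 and 16373, 9999, 11359, 9117 and 9394 FPKM in ceAF-1 to ceAF-5, and both lists are parts of one total in each library. *Car1* carried most of the differences in this sum. It stood at 2598 to 8530 FPKM in DSS-2, DSS-3, DSS-4, ceAF-1 and ceAF-3 and at 93.3 to 931 FPKM in the other mice. Without it the sum was 8319.8, 8754, 8565, 9539.5 and 6814 FPKM in DSS-1 to DSS-5 and 7843, 9356, 8762, 8488 and 8964 FPKM in ceAF-1 to ceAF-5, and r of the score of the other 12 was −0.43 (rho = −0.35). Between the groups 6 of the 13 lay below 0 and 7 above, at a median of 0.02 and with 0 at an unadjusted p under 0.05.

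Fibroblast markers (11 of 12 tested, *Pi16* too low) had *Gsn* (29.9 to 93.3 FPKM), which epithelium also transcribes, as their most abundant gene. Summed they gave 312, 164, 176, 155 and 217 FPKM in DSS-1 to DSS-5 and 67.0, 218, 186, 193 and 192 FPKM in ceAF-1 to ceAF-5. Their score had r = 0.50 with the smooth muscle score (rho = 0.49), and r = 0.29 without ceAF-1 (0.30 without ceAF-3 as well). ceAF-1 was lowest for both fibroblast and endothelial markers. Between the groups all 11 tested lay below 0 (48.6% of all tested genes), with 0 at an unadjusted p under 0.05, but only 5 of 11 did without ceAF-1 and 6 of 11 without DSS-1. At that p 2 fibroblast markers were lower without DSS-4 (3.35% of all tested genes). The count was 1 with DESeq2, without a filter on low counts, and without DSS-5, ceAF-2 or ceAF-4 (2.755% to 4.54%). Endothelial markers (9 of 9 tested) had *Pecam1* (1.51 to 7.82 FPKM) as the most abundant gene and summed to 24.9, 13.7, 14.4, 14.0 and 19.5 FPKM in DSS-1 to DSS-5 and 5.07, 11.2, 11.8, 21.6 and 12.3 FPKM in ceAF-1 to ceAF-5. Their r with the score was 0.33 (rho = 0.22), which turned to −0.05 without ceAF-1 and to −0.33 without ceAF-1 and ceAF-3. Markers of pericytes and vascular smooth muscle (8 of 9 tested, *Higd1b* too low) had *Rgs5* (18.6 to 47.3 FPKM) as the most abundant gene. Summed they gave 80.9, 49.8, 72.4, 41.2 and 56.4 FPKM in DSS-1 to DSS-5 and 44.3, 44.1, 33.2, 56.9 and 40.8 FPKM in ceAF-1 to ceAF-5. They did not track the 10 genes closely, with r = 0.33 and rho = 0.53, r = 0.18 without ceAF-1, and r = 0.02 without ceAF-1 and ceAF-3. Between the groups 9 of 9 endothelial and 7 of 8 pericyte and vascular markers lay below 0 (48.6% of all tested genes), with 1 and 2 of them at an unadjusted p under 0.05 in edgeR's test (3.67% of all tested genes were lower at it). Without ceAF-1 the numbers below 0 were 7 of 9 and 7 of 8, with 1 and 2 at that p, and without DSS-1 they were 8 of 9 and 6 of 8, with 1 and 0 (5.94% and 1.92% of all tested genes were lower at it in these fits). Without ceAF-4 the numbers at that p were 4 and 3 (3.14% of all tested genes), without DSS-4 2 and 2 (3.35%), with the replicate block 0 and 0 (2.06%), and with limma at a pseudocount of 0.1, which tested 5 genes of each list, 0 and 0 (4.51%).

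Cells that live among the muscle layers were read in the same way. Interstitial cells of Cajal pace the muscle, and their 5 tested markers had r = 0.57 and rho = 0.38 with the score, and r = 0.42 without ceAF-1 (0.57 without ceAF-3 as well). Their most abundant gene was *Thbs4* (6.15 to 92.4 FPKM). The markers did not move as one. *Thbs4* and *Ano1* (3.08 to 33.4 FPKM) were lowest in ceAF-1. *Kit* was lowest in ceAF-2 (3.11 FPKM) and DSS-5 (3.18 FPKM), which had ranks 1 and 2 in smooth muscle score. Enteric neuron markers (12 of 12 tested), with *Vip* (1.3 to 16.5 FPKM) on top, had r = 0.37 and rho = 0.36, and r = 0.59 without ceAF-1 (0.54 without ceAF-3 as well). They summed to 63.2, 18.2, 42.2, 14.5 and 24.1 FPKM in DSS-1 to DSS-5 and 31.0, 27.9, 18.6, 20.1 and 32.2 FPKM in ceAF-1 to ceAF-5. The 6 tested enteric glia markers had r = 0.24 and rho = 0.24, and r = 0.64 without ceAF-1 (0.40 without ceAF-3 as well). ceAF-1 had the highest glia score. Their most abundant gene, *Erbb3* (58.4 to 135 FPKM), is also transcribed in epithelium. Between the groups 11 of 12 neuron, 3 of 6 glia and 4 of 5 interstitial cell markers lay below 0, against 48.6% of all tested genes, and 1 interstitial cell marker was lower at an unadjusted p under 0.05 in edgeR's test (3.67% of all tested genes). It was *Prkcq*, at a log2 fold change of −1.15 and only 0.21 to 1.25 FPKM. *Kit* was at −0.22, *Etv1* at −0.19, *Thbs4* at −0.04 and *Ano1* at 0.64, so the list did not share that drop. The interstitial cell count at that p was 2 of 5 without DSS-5 (4.54% of all tested genes). With limma it was 0 of the 3 tested (4.504% and 4.51%). Without DSS-1 3 of 12 neuron, 3 of 6 glia and 3 of 5 interstitial cell markers lay below 0, and without ceAF-1 11 of 12, 5 of 6 and 3 of 5. The glia median was −0.14 with all mice and −0.51 without ceAF-1. In the fit without ceAF-1, 2 of 6 glia and 1 of 5 interstitial cell markers were lower at that p (5.94% of all tested genes). There 1 interstitial cell marker was higher at it, where 11.15% of all tested genes were at that p in either direction.

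Markers of skeletal muscle, mesothelium and fat were mostly scarce. Of 11 skeletal muscle markers 4 had enough counts, and *Myh4* and *Pvalb* had 0 counts in all 10 mice. The most abundant was *Acta1* (1.11 to 8.37 FPKM), and the list summed to 9.45, 12.5, 8.45, 10.1 and 5.41 FPKM in DSS-1 to DSS-5 and 6.58, 9.63, 8.59, 9.79 and 7.53 FPKM in ceAF-1 to ceAF-5. Its r with the score was 0.27 (rho = 0.35), 0.09 without ceAF-1, and −0.08 without ceAF-1 and ceAF-3, but 0.70 (rho = 0.66) without *Acta1*. Mesothelium markers (3 of 6 tested) reached 4.01 FPKM in sum at most, led by *Upk1b* (0.39 to 1.21 FPKM), with r = 0.22 and rho = 0.45, and r = 0.17 without ceAF-1 (0.14 without ceAF-3 as well). Of 6 adipocyte markers only *Cidec* and *Fabp4* were tested, neither of which is limited to fat cells, and *Adipoq*, *Plin1*, *Lep* and *Retn* were too low. The score of those 2 had r = −0.57 and rho = −0.60 with the smooth muscle score, and r = −0.45 without ceAF-1 (−0.57 without ceAF-3 as well). *Cidec* (2.82 to 13.5 FPKM) was the more abundant, and without it r was −0.27 (rho = −0.15). The adipocyte list summed to 6.53 (DSS-5) to 19.2 FPKM (ceAF-1). With all mice no list of this kind had a gene at an unadjusted p under 0.05 between the groups in edgeR's test, and 0 were called after adjustment. Of all tested genes 3.67% were lower and 3.26% higher at that p. Without DSS-2 1 mesothelium gene was lower at it (3.51%), and without ceAF-5 1 skeletal muscle gene (3.17%). Below 0 lay 3 of 3 mesothelium (median −0.58, and −0.85 to −0.16 with single mice left out), 2 of 4 skeletal muscle and 1 of 2 adipocyte markers (48.6% of all tested genes).

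Leukocyte markers (11 of 11 tested) were read last of the cell types. Compared to the DSS group all 11 lay below 0, at a median of −1.06, with 7 at an unadjusted p under 0.05 in edgeR's test, of which 0 were called after adjustment. Of all tested genes 48.6% lay below 0 and 3.67% were lower at that p. Without DSS-1 9 of 11 lay below 0, at a median of −0.51, with 4 at an unadjusted p under 0.05 (1.92% of all genes lower), and without ceAF-1 10 of 11, at −0.91, with 5 (5.94%). With the replicate block 10 of 11 lay below 0, at −0.68, with 3 at that p (2.06%), and with limma 11 of 11, with 5 at a pseudocount of 1 (4.504%) and 4 at 0.1 (4.51%). They summed to 816, 91.1, 168, 90.8 and 114 FPKM in DSS-1 to DSS-5 and 26.6, 69.0, 67.7, 50.1 and 95.3 FPKM in ceAF-1 to ceAF-5, with *S100a8* (0.39 to 600.4 FPKM) the most abundant, and DSS-1 was far above the other mice. Their score had r = 0.44 with the smooth muscle score and rho = 0.22, r = 0.26 without ceAF-1, and r = 0.23 without ceAF-1 and ceAF-3. DSS-1, with the most leukocyte RNA, had rank 3 of 10 in smooth muscle score, and ceAF-1, with the least, rank 9. Other mice went against this order. ceAF-2 and DSS-5, with ranks 1 and 2, had leukocyte scores of −0.18 and −0.14, and DSS-3, at 0.53, had rank 6.

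*Hox* genes are transcribed in stretches along the gut and mark the position of a piece of colon, with those numbered highest nearest its far end. The score of 5 *Hoxb* genes (*Hoxb4* to *Hoxb8*) was −1.58, 1.56, 1.99, 1.35 and −2.07 in DSS-1 to DSS-5 and 3.27, −2.06, 0.87, −1.22 and −2.12 in ceAF-1 to ceAF-5, with *Hoxb6* (0.43 to 41.4 FPKM) the most abundant. The mice formed 2 clusters by this score, so no pooled r is given. DSS-1, DSS-5, ceAF-2, ceAF-4 and ceAF-5 had scores below −1.2, and the other 5 mice scores above 0.8. Those other 5 were also the mice with high *Car1* and the highest epithelium scores (0.16 to 0.35, against −0.58 to 0.01). The r of the epithelium score with the smooth muscle score is therefore not separate from this split. In smooth muscle score 4 of the 5 mice with low *Hoxb* scores were among the 5 highest, ceAF-4 being the exception. Of the 5 mice with high *Hoxb* scores 4 were among the 5 lowest, with DSS-2 the exception. Both clusters held mice of both groups. The part of position along the colon in the differences between mice was not tested, and the labels do not give it. Of 6 posterior *Hox* genes 5 were tested, with *Hoxb13* (2.5 to 96.1 FPKM) the most abundant, and their score was −0.48, 0.30, 0.46, −0.62 and 0.31 in DSS-1 to DSS-5 and −1.08, 2.24, 2.02, −3.40 and 0.23 in ceAF-1 to ceAF-5. It had r = 0.35 and rho = 0.36 with the smooth muscle score, r = 0.28 without ceAF-1, and r = 0.70 without ceAF-1 and ceAF-3. Between the groups 1 of the 5 *Hoxb* genes and 2 of the 5 tested posterior genes lay below 0, and 1 posterior gene was higher at an unadjusted p under 0.05 in edgeR's test (3.26% of all tested genes). That count was 0 with the replicate block, with limma, and without DSS-1, DSS-2, DSS-4, ceAF-2 or ceAF-3. Without ceAF-4 it was 3 (5.62% of all tested genes were at that p in either direction). The median of the posterior genes was 1.23, but 0.050 and 0.045 with limma, which tested 4 of them. Without ceAF-1 5 of 5 *Hoxb* genes and 0 of 5 posterior genes lay below 0.

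**Figure D4:**
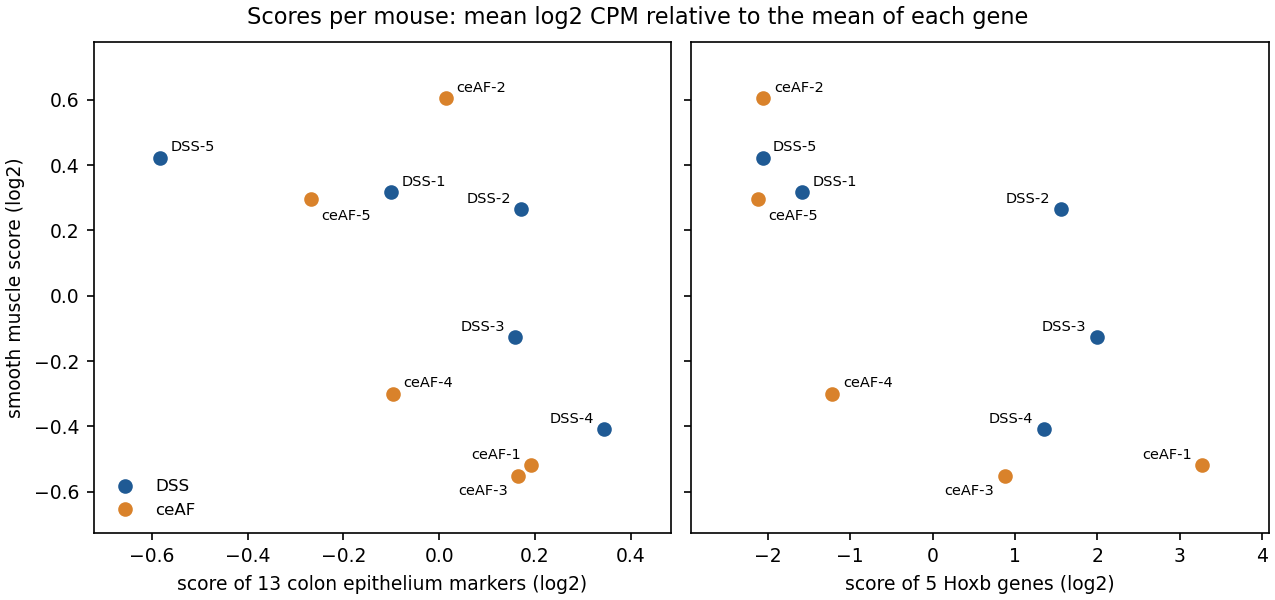
Smooth muscle score of each mouse (vertical axis) against the score of 13 colon epithelium markers (left) and of 5 *Hoxb* genes (right), all on the log2 scale, with DSS mice in blue and ceAF mice in orange. The epithelium score has r = −0.60 with the smooth muscle score over 10 mice (−0.43 without *Car1*), and the *Hoxb* scores form 2 clusters that both hold mice of both groups.

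The promoters of the 10 genes were read for a shared site. Serum response factor is known to bind the CArG box, in which a run of A and T lies between a CC and a GG. RefSeq promoters, from 250 bases before to 50 after the start of a gene on GRCm38.p6, were matched by symbol for 7 of the 10 genes, and those of *Actg2*, *Myh11* and *Tagln* were not matched. The deposited table uses other coordinates, since 2.76% of its 52073 genes shared with GENCODE M21 lie at the GRCm38 position, so genes were matched to both references by symbol or Ensembl ID and not by position. A CArG box with A or T at all 6 inner positions was found in 0 of the 7 and in 1.63% of all 32851 promoters. The pattern reads the same on both strands. With 1 other base allowed among the 6, it was found in 1 of the 7, *Acta2*, and in 9.98% of all promoters. The *Acta2* promoter held 2 such boxes, and at least 2 were held by 0.822% of all promoters. They lie 84 to 75 and 34 to 25 bases before the start, upstream of the first exon, and are shown in capitals in the 90 bases at chr19:34255383-34255472 (minus strand, GRCm38.p6, RefSeq), read 5′ to 3′:
*Acta2*: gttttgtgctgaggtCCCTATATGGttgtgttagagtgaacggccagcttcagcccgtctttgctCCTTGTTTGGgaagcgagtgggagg
A match describes these letters, and its absence says only that they are not in this window.

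Reads from related or overlapping genes could enter some of these counts, since the counting program and its use of strand are not given in the sources used here. In windows of 50 bases along the longest GENCODE M21 transcript, 7 of 1986 of *Acta2* also occur in transcripts of other genes, among them the cytoplasmic actin *Actg1*, and 26 of 6500 of *Myh11*, in the non-muscle myosins *Myh9* and *Myh10*. For *Synpo2* it was 5 of 9154, and for the other 7 genes 0. *Tagln* overlaps *Pcsk7* on the opposite strand, which had a mean of 2096 counts per mouse where *Tagln* had as few as 945, and also *Gm48529*, with a mean of 388. *Smtn* overlaps *Gm11946* on the opposite strand, with a mean of 312 counts where *Smtn* had at least 676. Without strand, reads from these pairs cannot be told apart, and the values of *Tagln* and *Smtn* are the less certain for it. *Pcsk7*, *Gm48529* and *Gm11946* were named for their position, after their values were seen.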

How the data were processed

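Bulk RNA of colon from 10 mice was analysed, 5 per group, from 1 table. The submitters trimmed reads with cutadapt 1.9.1 and aligned them with HISAT2 2.2.1, per their processing notes. The counting program and genome build are not given in the sources used here. The count of reads per gene is as deposited by the authors. The FPKM values, as deposited by the authors, equal those counts divided by the deposited exonic length and the library total, within 0.006. Members and marker lists were chosen with earlier results of these data known, and other genes are named by rank or position. Genes passing edgeR's filterByExpr (minimum count 10) were normalized by TMM, and log2 CPM used a prior count of 1. ceAF was tested against DSS with edgeR 4.0.16 (quasi-likelihood) in R 4.3.3, and tested on simulated data. Alternatives used DESeq2 1.42.0, limma 3.58.1 on FPKM, other filters and normalization, a replicate block, and each mouse left out. Scores, r and figures used Python 3.11.15 and matplotlib 3.10.9. Untreated and mesalazine mice were not analysed here.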

Additional observations from a re-analysis of the deposited data

How the results depend on the processing

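The median log2 fold change of the 10 genes was −0.14, between −0.22 and −0.13 under 7 other settings, and between −0.34 (without ceAF-2) and −0.01 (without ceAF-3) when mice were dropped singly. The replicate block gave −0.20. In each of these 17 settings 0 of 10 genes had an adjusted or unadjusted p under 0.05, with DESeq2 and limma as with edgeR, and the smallest unadjusted p was 0.0807. Among all tested genes edgeR called 0 with all mice and 3 without DSS-5, DESeq2 called 26 of 32419, and limma called 1 with either pseudocount.

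Of 170 values for single genes 22 changed sign, all in 5 genes. With upper quartile normalization *Myh11* was at 0.0012. With single mice left out, *Myh11* ranged from −0.22 to 0.12, *Tagln* from −0.23 to 0.10, *Des* from −0.367 to 0.0362, *Mylk* from −0.151 to 0.0427 and *Smtn* from −0.214 to 0.0510. The others ranged from −0.49 to −0.09 (*Acta2*), −0.56 to −0.13 (*Actg2*), −0.46 to −0.04 (*Cnn1*), −0.33 to −0.04 (*Lmod1*) and −0.35 to −0.07 (*Synpo2*). The group difference in score, −0.19, ranged from −0.36 to −0.07, and was −0.20 on log2(FPKM + 1). That in summed share, −0.0261%, ranged from −0.0559% to −0.00666%. The median of the other smooth muscle genes ranged from −0.25 to −0.05.

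Medians of the 13 marker lists were computed under these settings, which was chosen after seeing the data, and 6 changed sign. The FPKM filter of the limma settings left fewer genes in some lists, and none of the mesothelium list. Enteric glia (−0.14) were at 0.0459 and 0.0275 with limma at pseudocounts of 1 and 0.1, where 2 of the 6 genes were tested, so tool and genes changed together, and ranged from −0.51 to −0.01 with single mice left out. Colon epithelium (0.02) was at −0.00915 and −0.00916 with limma, and ranged from −0.0321 to 0.138 with single mice left out. Skeletal muscle (−0.02) was at 0.0368 with limma at 0.1, at 0.0945 with the replicate block, and from −0.154 to 0.199 with single mice left out. *Hoxb* genes (0.38) were at −0.343 and −0.544 with limma, at −1.11 with the replicate block, and from −1.64 to 0.756 with single mice left out. Enteric neurons (−0.17) ranged from −0.474 to 0.185 and fibroblasts (−0.21) from −0.363 to 0.0102 with single mice left out.

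Mice that share a replicate number had r from −0.25 to 0.29 after group means were removed, and 2 of 10 mice correlated best with their own number, so the numbers were not read as pairs. Values without ceAF-1, or without the 2 mice farthest from the median score, were chosen in part after seeing the data. Without the most abundant gene of a list, also chosen then, r with the score was 0.70 for skeletal muscle, 0.44 for interstitial cells of Cajal, 0.38 for mesothelium, 0.34 for glia, −0.27 for the 1 adipocyte gene left and −0.43 for epithelium, and within 0.1 of the printed r for the other 7 lists with one. Why libraries differ was not tested. Each group had 5 mice, and the lowest count of any of the 10 genes was 204.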
